A study of Mus musculus with 2 samples.

Results

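Lipid droplet coat and lipolysis genes, 10 in all, were followed in mouse liver, namely the perilipins Plin2, Plin3, Plin4 and Plin5, the CIDE genes Cidea, Cideb and Cidec, the lipase gene Pnpla2, its relative Pnpla3 and the lipase inhibitor gene G0s2. They were taken by symbol, and each of the 10 matched 1 of the 35275 genes measured. The study expressed endotrophin (ETP), a peptide cleaved from the end of collagen VI alpha3, in the livers of mice prone to steatosis, and sequenced liver RNA from 2 groups with 1 library each. S1a/ETP mice carried Alb-Cre+/-, Rosa rtTA+/-, TRE-ETP+/- and S1a+/-, and S1a/Ctrl mice carried the same alleles without TRE-ETP. Both groups therefore shared the Cre driven by the albumin promoter, the doxycycline-dependent activator rtTA that this Cre switches on, and S1a, a truncated and constitutively active human SREBP1a driven by the rat PEPCK promoter. Both were aged 12 months and had received doxycycline at 200 mg/kg for 10 months. The paper states a backcross to the FVB strain for some of the lines crossed, and does not state it for the S1a line. Each library was made from pooled RNA of 3 mice. There was thus 1 value per group and no measure of the spread between mice, so no difference was tested, and livers without S1a were not analysed here.

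Lipid droplets are the stores in which hepatocytes keep triglyceride, and they enlarge and multiply in fatty liver. Perilipins coat the droplet and control how lipases reach its surface, CIDE proteins move lipid between touching droplets so that these fuse and grow, and Pnpla2 (adipose triglyceride lipase) takes the first fatty acid off each triglyceride. Pnpla2 is activated by Abhd5 and inhibited by G0s2, and the diglycerides it leaves are split further by the hormone-sensitive lipase Lipe and the monoglyceride lipase Mgll.

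The DNA before the start sites of the perilipins, of Pnpla3 and of G0s2 is shown. This choice takes in all 5 genes with a match to the short element CCAAT. It leaves out Cidec, Cideb and Pnpla2, whose windows had none. RefSeq windows (GRCm38.p6) matched 9 of the 10 genes, all but Cidea, and the 250 bases before each start site were searched on both strands. CCAAT, the letters bound by the factor NF-Y, stood in 5 of the 11 windows of these 9 genes (1 each of Plin2, Plin3, Plin4, Plin5 and Pnpla3, while Plin5 and Cidec have 2 windows each), against 33.8% of all 32851 windows. With so few windows nothing particular to these genes is read from that share. The sterol element TCACNCCAC was in none of the 11 and in 1.05% of all windows, the PPAR element (AGGTCA repeated after 1 base of any kind) in none and in 0.0335%, the E-box CACGTG in none and in 6.02%, and TATAAA in Cideb alone and in 12.4%. Below, capitals mark CCAAT or, where the element runs on the other strand, its complement ATTGG, and bases in annotated exons were left out, among them the match of Plin4. The stretches are chr4:86670061-86670309 for Plin2, chr17:56290512-56290761 for Plin3, chr17:56109804-56110032 for Plin4, chr17:56117597-56117798 for Plin5 and chr1:193273218-193273337 for G0s2, all on the minus strand, and chr15:84167566-84167815 for Pnpla3 on the plus strand.
Plin2: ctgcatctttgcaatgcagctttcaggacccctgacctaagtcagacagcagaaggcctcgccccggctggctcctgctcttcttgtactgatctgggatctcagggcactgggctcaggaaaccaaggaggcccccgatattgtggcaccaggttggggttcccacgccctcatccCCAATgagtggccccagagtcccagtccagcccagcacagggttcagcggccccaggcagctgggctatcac
Plin3: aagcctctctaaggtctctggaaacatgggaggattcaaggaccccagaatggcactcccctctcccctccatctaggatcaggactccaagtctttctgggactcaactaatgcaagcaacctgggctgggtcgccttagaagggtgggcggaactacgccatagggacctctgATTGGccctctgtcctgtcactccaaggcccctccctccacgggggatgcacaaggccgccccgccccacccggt
Plin4: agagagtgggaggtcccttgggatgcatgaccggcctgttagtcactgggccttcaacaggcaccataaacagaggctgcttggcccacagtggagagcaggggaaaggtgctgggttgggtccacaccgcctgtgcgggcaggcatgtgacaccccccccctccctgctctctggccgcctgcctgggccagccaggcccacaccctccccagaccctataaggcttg
Plin5: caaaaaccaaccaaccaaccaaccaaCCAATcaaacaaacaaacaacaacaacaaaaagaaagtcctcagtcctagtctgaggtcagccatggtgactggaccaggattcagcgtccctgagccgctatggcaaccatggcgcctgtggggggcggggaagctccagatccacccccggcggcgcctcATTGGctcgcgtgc
Pnpla3: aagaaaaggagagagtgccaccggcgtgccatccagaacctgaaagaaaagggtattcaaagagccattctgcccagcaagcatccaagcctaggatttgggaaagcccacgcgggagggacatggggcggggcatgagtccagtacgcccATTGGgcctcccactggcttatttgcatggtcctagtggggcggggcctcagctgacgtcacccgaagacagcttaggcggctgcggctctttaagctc
G0s2: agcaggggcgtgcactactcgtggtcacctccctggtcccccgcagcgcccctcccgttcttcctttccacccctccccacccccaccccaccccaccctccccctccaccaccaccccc

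The element began 73 bases before the start site in Plin2, 75 in Plin3 and 99 in Pnpla3, and in Plin5 it occurred at both 224 and 62 bases. Upstream bases of G0s2 were the richest in G and C of the 6 stretches, at 72.5%, against 61.4% in Plin2. The G0s2 stretch held only 120 bases once exonic bases were left out. The median over all windows was 52.4%, but from the full 250 bases with exons kept, so the values are not measured alike. These matches describe letters only, and binding was not measured.

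The 2 libraries held 14538808 reads (S1a/ETP) and 19245078 reads (S1a/Ctrl) assigned to genes. Levels are given as FPKM, fragments divided by gene length and by library depth, so a comparison between genes depends on the lengths used. The deposited length of Pnpla3 was 4640 bases, against 1548 exonic bases in the GENCODE vM21 annotation. That of Plin2 was 1888 bases, against 3512. Levels and orders between genes hold for the deposited lengths only, whereas length cancels in the FPKM ratio of 1 gene between the libraries. Differences are given as the log2 ratio of S1a/ETP over S1a/Ctrl after 0.1 FPKM was added to both values, where 1 means 2-fold higher and -1 means 2-fold lower. The range after each ratio is a 95% exact interval (Clopper-Pearson) from the reads of that gene and covers counting error only. Alb, the main hepatocyte product, was at 31035 FPKM in S1a/ETP and 31534 FPKM in S1a/Ctrl, so that both libraries were liver by this marker. Neutrophil and skeletal muscle markers set the libraries apart. Neutrophil markers summed to 377 FPKM in S1a/ETP and 6.91 FPKM in S1a/Ctrl, and muscle markers to 0.857 FPKM in S1a/ETP and 137 FPKM in S1a/Ctrl. In bulk RNA, fewer cells of a type and less RNA per cell cannot be told apart. Each gene had 1 value, so the human S1a transcript could not be separated from mouse Srebf1, which was at 164 FPKM in S1a/ETP and 146 FPKM in S1a/Ctrl, and it does not check the labels.

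All 10 genes were well above the filter of 0.1 FPKM, with levels between 4.71 and 730 FPKM and between 394 and 22332 reads. G0s2 was lower in S1a/ETP, Cidea and Pnpla3 were higher, and Plin4 and Plin5 were lower by less, while Pnpla2 itself lay within counting error. None of the 10 was 2-fold higher, against 6.42% of the 16042 genes that passed the filter, and none was 2-fold lower, against 6.25%. Among the 6355 genes averaging 5 FPKM or more, the range in which all 10 lay and a limit chosen after the values were seen, those shares were 0.881% and 1.18%. At 1.5-fold, none was higher and 1, G0s2, was lower, against 3.54% and 3.27% of the 6355 genes (13.2% and 11.3% of the 16042). At 1.25-fold, also chosen after the values were seen, Cidea and Pnpla3 were higher, 2 of 10 against 12.3% (23.3% of the 16042), and Plin4, Plin5 and G0s2 were lower, 3 of 10 against 11.0% (20.0%). The counting interval lay above 0 for 5 genes, against 29.7% of the 6355 (22.4% of the 16042), and below 0 for 4 genes, against 25.7% (17.5%). With 10 genes, a single gene is 10% of the set. The 10 ratios had a median of 0.06, beside 0.02 over the 6355 genes, and a median absolute ratio of 0.29, beside 0.17. By sign, 5 ratios were above 0 and 5 below, the latter including Pnpla2, which lay within counting error.

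**Figure D1:**
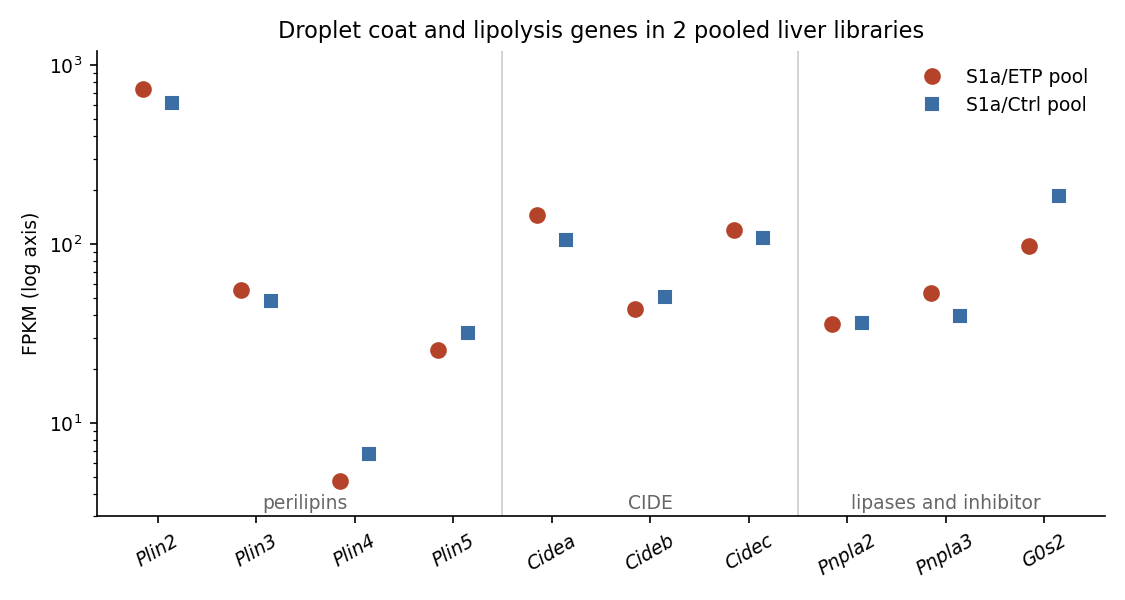
FPKM of each of the 10 genes (log axis) in the S1a/ETP pool (circles) and the S1a/Ctrl pool (squares), 1 library each, so that no error between mice can be drawn. Plin2 was the most abundant at 730 FPKM in S1a/ETP and 615 FPKM in S1a/Ctrl, Plin4 the least at 4.71 FPKM in S1a/ETP and 6.71 FPKM in S1a/Ctrl, and the widest gap was that of G0s2 at 97.5 FPKM in S1a/ETP and 185 FPKM in S1a/Ctrl.

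**Figure D2:**
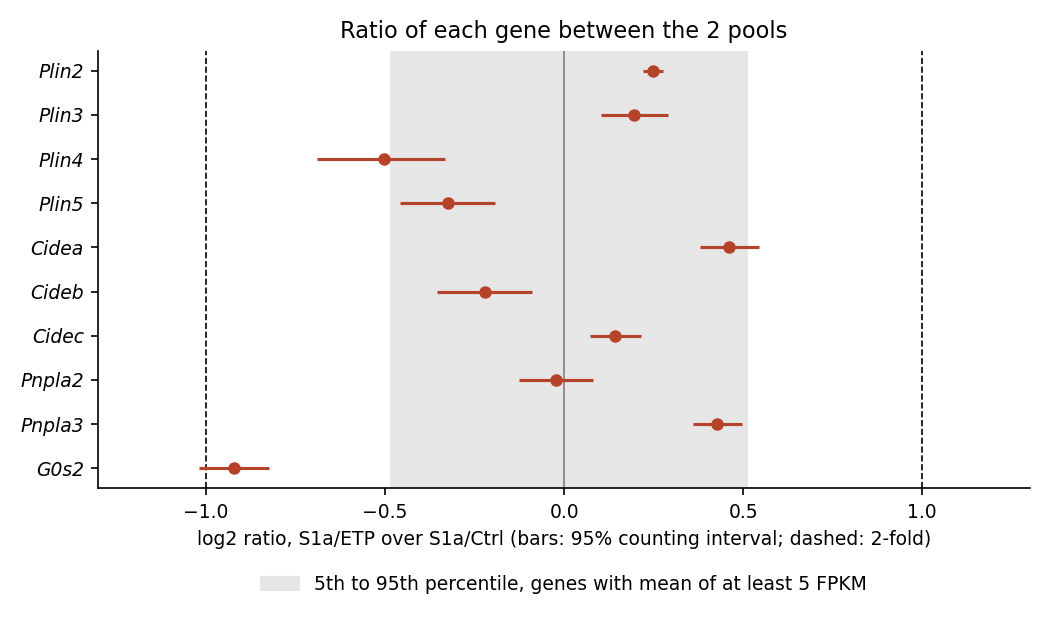
Log2 ratio of S1a/ETP over S1a/Ctrl for each gene, with the 95% counting interval as a bar, the 2-fold limits dashed and the range from the 5th to the 95th percentile of 6355 genes shaded (-0.48 to 0.51). G0s2 at -0.92 and Plin4 at -0.50 lay outside the shaded range, and the interval of Pnpla2 alone crossed 0.

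The perilipin coat was dominated by Plin2, and its members went in both directions. Plin2 (ENSMUSG00000028494, chr4:86648386-86670060), the main droplet coat of hepatocytes and a protein that is degraded when no lipid is there to bind, was at 730 FPKM in S1a/ETP and 615 FPKM in S1a/Ctrl. That was 20027 reads in S1a/ETP and 22332 reads in S1a/Ctrl, with a log2 ratio of 0.25 (0.22 to 0.27), and Plin2 ranked at place 80 by abundance in S1a/ETP and 107 in S1a/Ctrl. Plin2 was thus among the most abundant transcripts of both livers, and its ratio, though narrow in counting error, was smaller than 1.25-fold.

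Plin3 (ENSMUSG00000024197, chr17:56278962-56290511), an exchangeable coat found in the cytosol and on new droplets of most cells, was at 55.0 FPKM (1726 reads) in S1a/ETP and 48.0 FPKM (1994 reads) in S1a/Ctrl. Its log2 ratio was 0.20 (0.10 to 0.29), close to that of Plin2. The FPKM ratio of Plin2 to Plin3 was 13.3 in S1a/ETP and 12.8 in S1a/Ctrl, which differed by 1.04 times with a counting interval of 0.968 to 1.11 that holds 1.

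Plin5 and Plin4 were both lower in S1a/ETP. Plin5 (ENSMUSG00000011305, chr17:56111601-56117596), the perilipin of oxidative tissues that binds Pnpla2 and Abhd5 and ties droplets to mitochondria, was at 25.4 FPKM (734 reads) in S1a/ETP and 31.8 FPKM (1217 reads) in S1a/Ctrl, a log2 ratio of -0.32 (-0.46 to -0.19). Plin4 (ENSMUSG00000002831, chr17:56100591-56109803), a perilipin best known from adipocytes and muscle, was at 4.71 FPKM (394 reads) in S1a/ETP and 6.71 FPKM (743 reads) in S1a/Ctrl, a log2 ratio of -0.50 (-0.69 to -0.33). As low a ratio as that of Plin4 was found in 291 of the 6355 genes, and as low a ratio as that of Plin5 in 695. All 17 skeletal muscle markers that passed the filter were likewise lower in S1a/ETP, by 2-fold or more, with 12 of the 19 listed genes at 0 there and 1 at 0 in S1a/Ctrl. Acta1, the actin of muscle fibers, had 0 reads in S1a/ETP and 493 reads in S1a/Ctrl, and the whole list had 19 reads in S1a/ETP and 4202 reads in S1a/Ctrl. The part of muscle RNA in the ratios of Plin4 and Plin5 was not tested.

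Within the perilipin family, Plin2 made up 89.6% of the summed FPKM in S1a/ETP and 87.7% in S1a/Ctrl. The share of Plin3 was 6.75% in S1a/ETP and 6.84% in S1a/Ctrl, that of Plin5 3.12% in S1a/ETP and 4.54% in S1a/Ctrl, and that of Plin4 0.578% in S1a/ETP and 0.957% in S1a/Ctrl. The coat message was thus more strongly Plin2 in S1a/ETP, and the FPKM ratio of Plin2 to Plin5, 28.7 in S1a/ETP and 19.3 in S1a/Ctrl, was 1.49 times as high (1.35 to 1.64). Plin5 and Plin4 did not part by more than counting error, since the ratio of Plin5 to Plin4 was 5.40 in S1a/ETP and 4.75 in S1a/Ctrl, 1.14 times as high (0.974 to 1.33). The family summed to 815 FPKM in S1a/ETP and 701 FPKM in S1a/Ctrl, a log2 ratio of 0.22 for the sum. Plin1, the perilipin of adipocytes, had 0 reads in S1a/ETP and 5 reads in S1a/Ctrl.

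**Figure D3:**
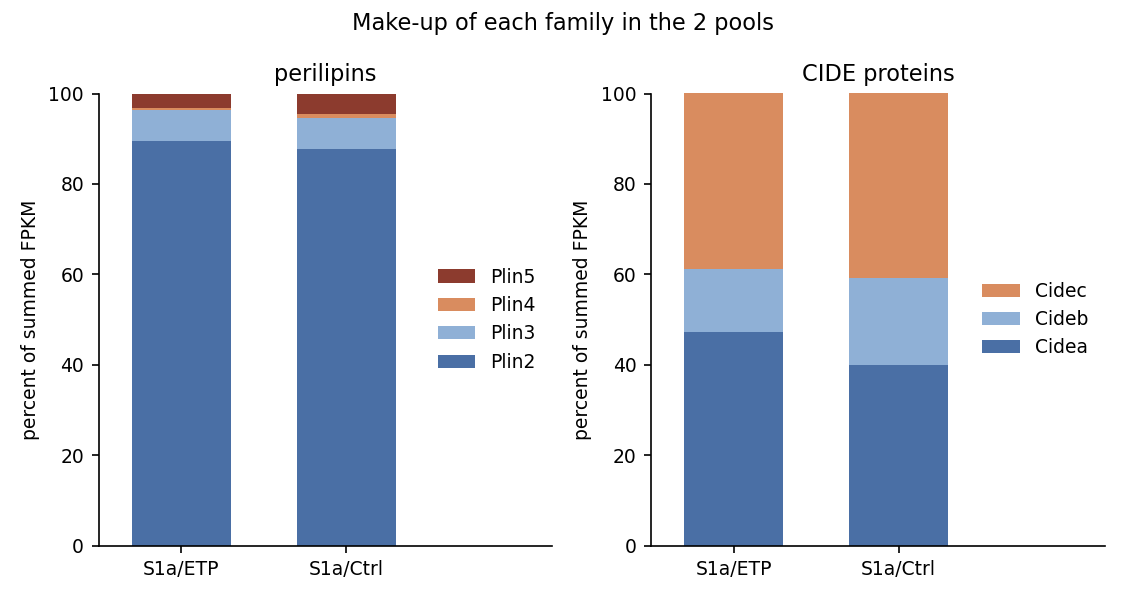
Percent of the summed FPKM of its family taken by each perilipin (left) and each CIDE gene (right) in the S1a/ETP pool and the S1a/Ctrl pool. Plin2 held 89.6% of perilipin FPKM in S1a/ETP and 87.7% in S1a/Ctrl, and Cidea held 47.2% of CIDE FPKM in S1a/ETP and 40.0% in S1a/Ctrl. The CIDE shares include the Cideb count, which is uncertain.

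The perilipin genes Plin3, Plin4 and Plin5 sit within 190 kb of chromosome 17. Plin4 and Plin5 are 1797 bases apart and shared the lower level in S1a/ETP, whereas Plin3, at the far end, was higher. Lrg1, the leucine-rich glycoprotein of the acute phase, lies 2083 bases beyond Plin5, between it and Plin3, and was at 488 FPKM in S1a/ETP and 161 FPKM in S1a/Ctrl, a log2 ratio of 1.60 (1.55 to 1.65). Lrg1 was singled out after its value was seen. Of the 7 genes between the ends that are not perilipins, Lrg1 and Dpp9, at 0.38 (0.23 to 0.53), had intervals above 0. The other 5 (Sema6b, Tnfaip8l1, D17Wsu104e, Fem1a and Ticam1) had ratios between -0.16 and 0.11 with intervals that hold 0, so neighboring genes in this stretch had very different ratios.

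**Figure D4:**
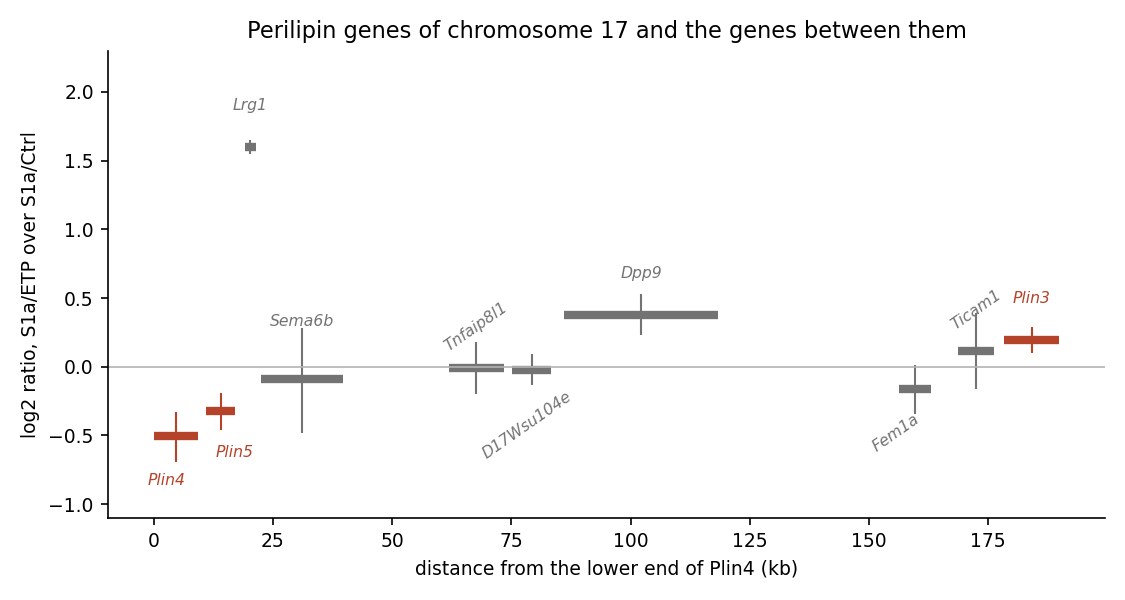
Log2 ratio of S1a/ETP over S1a/Ctrl of the 10 genes from Plin4 to Plin3 on chromosome 17, plotted by distance from the lower end of Plin4 in kb. Horizontal bars span each gene, vertical bars are 95% counting intervals and perilipins are in red, with Plin4 and Plin5 below 0, Plin3 at 0.20 and Lrg1 at 1.60.

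Of the CIDE genes, Cidea was higher in S1a/ETP, Cidec slightly so, and Cideb lower. Cidea (ENSMUSG00000024526, chr18:67343564-67367794), which is made in brown fat and appears in steatotic liver, was at 145 FPKM (2457 reads) in S1a/ETP and 105 FPKM (2362 reads) in S1a/Ctrl. That gave 1.38 times the level and a log2 ratio of 0.46 (0.38 to 0.54), which 399 of the 6355 genes reached or passed. Cidec (ENSMUSG00000030278, chr6:113424634-113435760), also called Fsp27, the fusion protein of large droplets in fat and fatty liver, was at 119 FPKM (2977 reads) in S1a/ETP and 108 FPKM (3569 reads) in S1a/Ctrl, a log2 ratio of 0.14 (0.07 to 0.21).

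Brown fat markers went in both directions. Ucp1, the uncoupling protein that defines brown fat, had no reads in either library, Cox7a1 was at 6.24 FPKM in S1a/ETP and 26.6 FPKM in S1a/Ctrl, and Cox8b at 0 FPKM in S1a/ETP and 7.61 FPKM in S1a/Ctrl. Cox7a1 and Cox8b, which muscle also makes, were 2 of the 3 brown fat markers above the filter and both 2-fold lower. The third, Elovl3, which liver makes as well, was at 39.5 FPKM in S1a/ETP and 29.5 FPKM in S1a/Ctrl, and its log2 ratio of 0.42 (0.28 to 0.56) was close to that of Cidea. The part of brown fat RNA in the ratio of Cidea was not tested. White fat markers summed to 47.0 FPKM in S1a/ETP and 38.0 FPKM in S1a/Ctrl, with 5 of 11 at 0 in S1a/ETP and 1 in S1a/Ctrl. Adipoq had 0 reads in S1a/ETP and 4 reads in S1a/Ctrl, Cfd 0 reads in S1a/ETP and 3 reads in S1a/Ctrl, and Lep 0 reads in both. Of the 6 white fat markers that passed the filter, none was 2-fold different, and the most abundant, the fatty acid carrier Fabp4, had a log2 ratio of 0.43 (0.19 to 0.67).

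Cideb (ENSMUSG00000022219, chr14:55754045-55758458), the hepatocyte member of the family, which helps load lipid onto very low density lipoprotein, was at 43.1 FPKM (763 reads) in S1a/ETP and 50.3 FPKM (1178 reads) in S1a/Ctrl. Its log2 ratio was -0.22 (-0.36 to -0.09). This value is uncertain, because 76.3% of the exonic bases of Cideb also belong to Nop9 on the other strand in GENCODE vM21 and the strand setting of the counts is not given in the sources used here. Nop9 was at 5.12 FPKM in S1a/ETP and 4.80 FPKM in S1a/Ctrl. Its count crosses the same overlap, so its level does not show how far Cideb is affected.

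Cidea held 47.2% of the summed CIDE FPKM in S1a/ETP and 40.0% in S1a/Ctrl, Cidec 38.7% in S1a/ETP and 40.9% in S1a/Ctrl, and Cideb 14.0% in S1a/ETP and 19.1% in S1a/Ctrl. Cidea thus stood above Cidec in S1a/ETP, at a ratio of 1.22, and just below it in S1a/Ctrl, at 0.978, a ratio 1.25 times as high in S1a/ETP (1.16 to 1.34). The ratio of Cidea to Cideb, 3.37 in S1a/ETP and 2.10 in S1a/Ctrl, was 1.61 times as high (1.44 to 1.79). This ratio, the shares and the sum of the 3 genes all include the Cideb count, which its overlap with Nop9 leaves uncertain. The sum of the 3 genes was 307 FPKM in S1a/ETP and 264 FPKM in S1a/Ctrl, a log2 ratio of 0.22, equal to that of the perilipin sum to 2 decimals.

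The lipase and its inhibitor parted. Pnpla2 (ENSMUSG00000025509, chr7:141455198-141460743), the triglyceride lipase that starts lipolysis, was at 35.5 FPKM (1355 reads) in S1a/ETP and 36.1 FPKM (1822 reads) in S1a/Ctrl, a log2 ratio of -0.02 (-0.13 to 0.08). G0s2 (ENSMUSG00000009633, chr1:193272161-193273188), the small protein that binds and blocks Pnpla2, was at 97.5 FPKM (1193 reads) in S1a/ETP and 185 FPKM (2990 reads) in S1a/Ctrl, a log2 ratio of -0.92 (-1.02 to -0.82). G0s2 was thus at 0.528 times its S1a/Ctrl level, the widest difference of the 10 genes, and its interval reached past the 2-fold limit. As low a ratio was found in 89 of the 6355 genes, G0s2 included, and its place by abundance was 687 in S1a/ETP and 413 in S1a/Ctrl.

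The balance of lipase to inhibitor message was higher in S1a/ETP for G0s2 and not for Hilpda, the other inhibitor of Pnpla2. Per G0s2, the FPKM of Pnpla2 was 0.364 in S1a/ETP and 0.195 in S1a/Ctrl, 1.86 times as high (1.69 to 2.06). Abhd5, the coactivator of Pnpla2, was at 26.6 FPKM in S1a/ETP and 20.6 FPKM in S1a/Ctrl, a log2 ratio of 0.37 (0.25 to 0.48), and its FPKM per G0s2 was 0.273 in S1a/ETP and 0.112 in S1a/Ctrl, 2.44 times as high (2.20 to 2.71). Hilpda was at 7.56 FPKM in S1a/ETP and 6.40 FPKM in S1a/Ctrl, and its log2 ratio of 0.24 (-0.15 to 0.63) holds 0. Per Hilpda, the FPKM of Pnpla2 was 4.69 in S1a/ETP and 5.63 in S1a/Ctrl, 0.833 times as high, with an interval of 0.631 to 1.10 that holds 1. Lipase activity was not measured. G0s2 is abundant in white fat, whose markers are given above, and the part of white fat RNA in its ratio was not tested.

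Pnpla3 (ENSMUSG00000041653, chr15:84167816-84189512), the droplet protein related to Pnpla2 and known as an SREBP target in liver, was at 53.5 FPKM (3606 reads) in S1a/ETP and 39.7 FPKM (3547 reads) in S1a/Ctrl. Its log2 ratio was 0.43 (0.36 to 0.50), 1.35 times the S1a/Ctrl level, and 460 of the 6355 genes were as high. Pnpla3 stood above Pnpla2 in both livers, at a ratio of 1.51 in S1a/ETP and 1.10 in S1a/Ctrl, 1.37 times as high (1.26 to 1.49). Of its 1548 exonic bases in GENCODE vM21, 6.78% are shared with Gm49513 on the same strand. The deposited length of Pnpla3 was 4640 bases, so this share may not hold for the gene as counted.

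In order of level in S1a/ETP, the genes ran from Plin2 through Cidea, Cidec, G0s2, Plin3, Pnpla3, Cideb, Pnpla2 and Plin5 to Plin4. In S1a/Ctrl the order was Plin2, G0s2, Cidec, Cidea, Cideb, Plin3, Pnpla3, Pnpla2, Plin5 and Plin4. G0s2 held the fourth place in S1a/ETP and the second in S1a/Ctrl, and Plin3 and Pnpla3 both stood above Cideb in S1a/ETP and below it in S1a/Ctrl. The order of close neighbors, such as Plin3 and Pnpla3 in S1a/ETP (55.0 and 53.5 FPKM) or Cidec and Cidea in S1a/Ctrl (108 and 105 FPKM), is not settled without the spread between mice. Both orders also hold only for the deposited gene lengths, and the place of Cideb is uncertain for its overlap with Nop9.

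Other lipases and droplet proteins were set beside the shares over all genes. Of the 16042 genes, 6.42% were 2-fold higher and 6.25% 2-fold lower (0.881% and 1.18% of the 6355). Of 17 further lipase genes and regulators that passed the filter, none was 2-fold higher and 1, Ces3a, was 2-fold lower, with a median log2 ratio of 0.06. With so few genes, nothing particular to these lists is read from such counts. Ces3a and Ces1d, carboxylesterases that hydrolyse triglyceride in the hepatocyte endoplasmic reticulum, were the farthest from 0. Ces3a was at 246 FPKM in S1a/ETP and 505 FPKM in S1a/Ctrl, and Ces1d, the most abundant of the list, at 319 FPKM in S1a/ETP and 569 FPKM in S1a/Ctrl, a log2 ratio of -0.83 (-0.87 to -0.80). Of the lipases that act after Pnpla2, Mgll had a ratio of 0.19 (0.13 to 0.25) and Lipe one of 0.26 (-0.01 to 0.54), an interval that holds 0. Of 16 droplet formation and droplet protein genes none was 2-fold different in either direction, and their median was 0.02. Mettl7b, at 734 FPKM in S1a/ETP and 604 FPKM in S1a/Ctrl, was close to Plin2 in level, and the droplet dehydrogenase gene Hsd17b13 was at 311 FPKM in S1a/ETP and 324 FPKM in S1a/Ctrl. Its relative Hsd17b11 was at 86.1 FPKM in S1a/ETP and 123 FPKM in S1a/Ctrl, a log2 ratio of -0.51 (-0.58 to -0.44).

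The regulators of droplet genes showed no 2-fold difference among 13 that passed the filter, beside the same shares over all genes, with a median of 0.02. Ppara, the fasting-activated receptor that drives Plin5 and fat oxidation, was at 34.7 FPKM in S1a/ETP and 34.9 FPKM in S1a/Ctrl, and Pparg, which drives Cidec and Cidea in fatty liver, was at 8.19 FPKM in S1a/ETP and 7.53 FPKM in S1a/Ctrl with a log2 ratio of 0.12 (-0.14 to 0.38). Both intervals hold 0. Mlxipl, the carbohydrate-sensing factor, had a ratio of -0.15 (-0.20 to -0.10), and Srebf2, the sterol regulator, the highest ratio of the list at 0.50 (0.40 to 0.61).

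Genes known as targets of these factors were split. Over the 16042 genes, 22.4% had intervals above 0 and 17.5% below (29.7% and 25.7% of the 6355). Of 6 PPAR gamma targets of fatty liver, 4 had intervals above 0 and 1 below, and their median was 0.25, with the fatty acid transporter Cd36 at 0.23 (0.17 to 0.29), Mogat1 at 0.27 (0.09 to 0.46), Ucp2 at 0.52 (0.41 to 0.63) and Vldlr at -0.55 (-0.86 to -0.31). Of 16 PPAR alpha targets, 6 had intervals above 0 and 9 below, with a median of -0.15. Acot1, which frees fatty acids from coenzyme A, was at -0.54 (-0.63 to -0.45), beside -0.32 for Plin5, while the hormone gene Fgf21 was at 0.92 (0.71 to 1.15). Of 8 fasting genes, 4 had intervals above 0 and 3 below, with Igfbp1 at 0.96 (0.84 to 1.08) and Pck1, the PEPCK gene itself, at -0.58 (-0.61 to -0.55). Of 12 feeding and lipogenic genes, 10 had intervals above 0 and 2 below, with a median of 0.59. Acaca, the first enzyme of fatty acid synthesis, was at 49.0 FPKM in S1a/ETP and 25.6 FPKM in S1a/Ctrl, Elovl6, which lengthens the product, had a ratio of 0.91 (0.87 to 0.95), and Scd1, the desaturase and most abundant of the list, was at 0.31. None of the genes in these 4 lists was 2-fold different, beside the 2-fold shares over all genes given above. Pnpla3 at 0.43 lay below the median of the lipogenic list, while Plin2 at 0.25 lay at that of the PPAR gamma list.

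**Figure D5:**
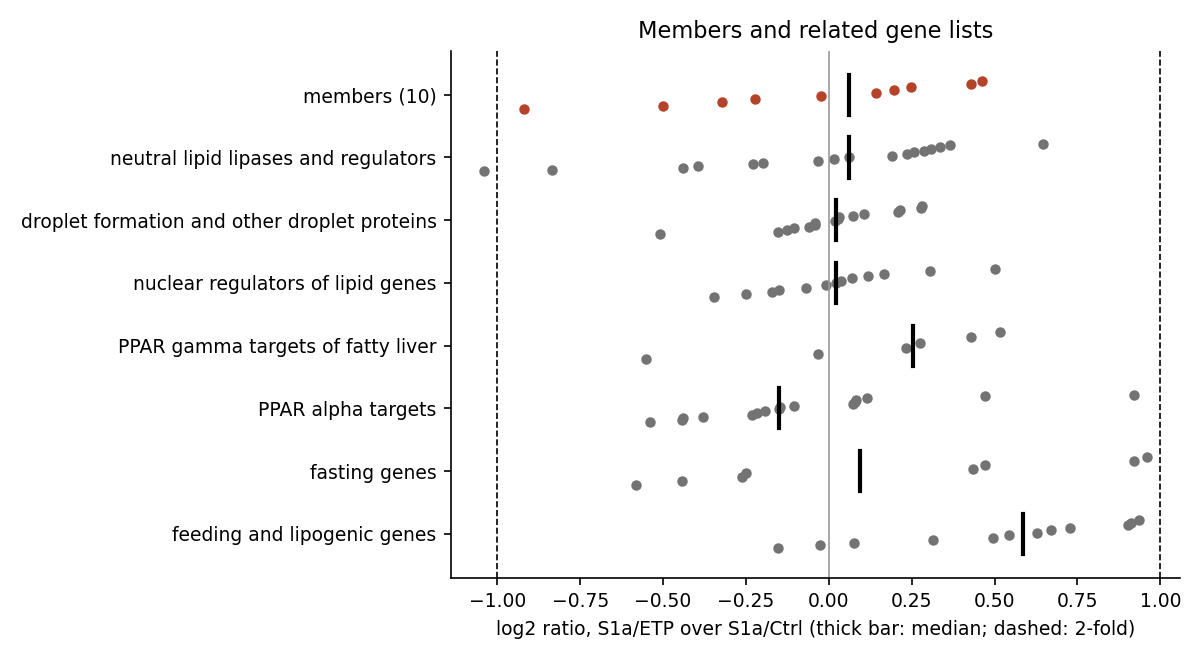
Log2 ratio of S1a/ETP over S1a/Ctrl of the 10 droplet genes (red, top row) and of the genes passing the filter in 7 related lists (gray), each point a gene and each thick bar the median, with 2-fold limits dashed. The 10 genes ran from -0.92 to 0.46 with a median of 0.06, and the feeding and lipogenic list had the highest median at 0.59.

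Cell types other than hepatocytes were read from their marker lists, and their part in the droplet gene ratios was not tested. Beside the marker counts stand the 2-fold shares over the 16042 genes, 6.42% higher and 6.25% lower. All 14 neutrophil markers that passed the filter were higher in S1a/ETP by 2-fold or more, with S100a9 at 158 FPKM in S1a/ETP and 3.10 FPKM in S1a/Ctrl, and 6 of the 15 listed genes were at 0 in S1a/Ctrl and none in S1a/ETP. Macrophage markers, of cells that also make Plin2 when they take up lipid, summed to 311 FPKM in S1a/ETP and 236 FPKM in S1a/Ctrl, with a median ratio of 0.41. Of these 16 genes 1, Marco, was 2-fold higher (named after its value was seen). Marco rested on only 17 reads in S1a/ETP and 5 reads in S1a/Ctrl, a log2 ratio of 1.59 (0.67 to 3.96). Stellate cell and fibroblast markers, whose quiescent cells store retinyl esters in droplets, summed to 223 FPKM in S1a/ETP and 211 FPKM in S1a/Ctrl, with a median of 0.27 and none of 12 past 2-fold. Of 10 hepatocyte markers the median was -0.15, and 1, Cyp2e1, was 2-fold lower at 1488 FPKM in S1a/ETP and 3050 FPKM in S1a/Ctrl.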

How the data were processed

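Liver RNA of S1a/ETP and S1a/Ctrl mice was sequenced by Novogene from pools of 3 mice, 1 library for each group, and the libraries were assigned by their labels and the design text. FPKM values as deposited by the authors, with the coordinates (mm10) and length of each gene, were the only data used. Among the tools in the submitters' processing notes are HTSeq 0.6.1, StringTie 1.3.3b, STAR and GATK 4.1, with no roles given. Neither the annotation release nor the strand setting is given in the sources used here.

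FPKM multiplied by gene length and depth gave whole reads, within 0.01 reads, for 100% of values, at 14538808 reads (S1a/ETP) and 19245078 reads (S1a/Ctrl). Log2 ratios used a pseudocount of 0.1 FPKM, which understates the difference of low genes, and the 16042 genes averaging 0.1 FPKM or more. The 2-fold limit is that of the methods. The p-value of the methods was left out, because single libraries carry no estimate of spread. Intervals of 95% are exact binomial (Clopper-Pearson) for a gene and conditional odds ratio intervals for the ratio of 2 genes. They cover counting error, not mice or library preparation. The computation was tested on simulated reads with counting error alone, which checks read recovery and the intervals but not the spread between mice.

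The 10 genes, and 14 lists of 171 genes (7 pathway, 7 cell type, 1 gene not matched), were chosen with earlier results of these data known. Droplet genes were left out of the lists. All droplet genes are named, and of each list the 2 genes with the largest absolute ratio among those averaging 1 FPKM or more, its most abundant gene, and direct partners of the droplet genes. Values of some genes this rule takes from the regulator and cell type lists are not printed. Alternatives were other pseudocounts (1 and 0.01 FPKM), filters, scalings and fold limits. Python 3.11.15, numpy 2.4.6, pandas 2.3.3, scipy 1.17.1 and matplotlib 3.10.9 were used.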

Additional observations from a re-analysis of the deposited data

How the results depend on the processing

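Of 70 recomputed ratios of the 10 genes, 65 moved by less than 0.5 of the width of their counting interval and 5 by more, all under a rescaling (Plin2 between 0.22 and 0.32, Cidec at 0.21 and Pnpla3 at 0.50). A filter cannot change the ratio of a gene, so the values under other filters were fixed in advance. Only the pseudocounts and rescalings could move a ratio. Pnpla2, within counting error throughout, ran from -0.05 to 0.05 and changed sign in 2 of the rescalings, and G0s2 ran from -0.95 to -0.85. The rescalings shifted all ratios by -0.03 to 0.07. None of the 10 genes was 2-fold different under any pseudocount, filter or rescaling tried. With a 1.5-fold limit 1 gene was lower, and with the 1.25-fold limit chosen after seeing the data 2 were higher and 3 lower. The median over the 10 genes, 0.06, ran from 0.03 to 0.13, and their mean was -0.052. By reads instead of FPKM, which favors long transcripts, Plin2 held 87.5% of the perilipins in S1a/ETP and 85.0% in S1a/Ctrl, and Cidea 39.6% of the CIDE genes in S1a/ETP and 33.2% in S1a/Ctrl, below Cidec in both. The CIDE shares again include the uncertain Cideb count. All 49 recomputed medians of the pathway lists moved by less than 0.099 on the log2 scale, and 14 of 98 medians over all lists moved by more, all in the muscle, neutrophil and fat markers. The median of the brown fat markers, -2.07, was 0 without the filter. Depth limited Plin4 most, whose interval of 0.36 log2 units was the widest. No paired analysis was possible because each group was a single pooled library, and for the same reason no replicate could be left out.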

Other observations

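Pnpla5, a further relative of Pnpla2 that was singled out after its value was seen, was at 40.2 FPKM (989 reads) in S1a/ETP and 25.6 FPKM (836 reads) in S1a/Ctrl, a log2 ratio of 0.65 (0.51 to 0.78). Among the lipase list it was the highest, and it was more abundant than Pnpla2 in S1a/ETP and less abundant in S1a/Ctrl. Angptl4, the secreted lipase inhibitor and PPAR target, was at 41.1 FPKM in S1a/ETP and 55.9 FPKM in S1a/Ctrl, a log2 ratio of -0.44 (-0.53 to -0.36), and was likewise chosen after its value was seen. Dgat2, which makes the triglyceride that fills droplets, was at 283 FPKM in S1a/ETP and 315 FPKM in S1a/Ctrl, a log2 ratio of -0.15 (-0.19 to -0.11), and was also chosen after its value was seen.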
